A study of Homo sapiens with 12 samples.

Results

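miR-31-5p and miR-31-3p (hsa-miR-31-5p and hsa-miR-31-3p in the count tables), the strands released from the MIR31 hairpin, are described here across 12 small-RNA libraries of HCT116 cells, a human colorectal carcinoma line. They were taken by name and are 2 of the 1346 miRNA entries in those tables. The cells carried a mutant or a wild-type DICER as a rescue, with 2 libraries per form. The mutant forms were E5, A5, ΔPAZ helix, R821E and R821A, and the form they were set against was wild type (WT). In R821E and R821A the arginine at this residue is exchanged for glutamate or for alanine, and ΔPAZ helix is named for the loss of a helix in the PAZ domain. The labels do not spell out the E5 and A5 changes, the DICER background of the cells before rescue or the way in which the rescue was introduced. All libraries were made by AQ-seq, a protocol that lowers ligation bias, from 100 µg of total RNA. The labels number the replicates without naming separate cultures, so every p-value below covers the spread between these libraries only, which may be technical.

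DICER cuts the loop from a precursor hairpin, and the resulting duplex is loaded into Argonaute, which usually keeps one strand as guide and sheds its partner. For MIR31 the 5p strand is regarded as the guide, a miRNA raised in many colorectal tumours and known to repress LATS2, RASA1 and RHOA. The 3p strand arises from the opposite arm and is the usual passenger. MIR31 lies on chromosome 9, on the minus strand of GRCh38.p14, at chr9:21512115-21512185. By GENCODE release 29 this places it in intron 1 of the non-coding host gene MIR31HG. The 5p strand covers chr9:21512158-21512178. The mature strand is shown with its seed, bases 2 to 8, in capitals, and the hairpin with the 5p strand in capitals, since all results below turn on how these arms are counted (RefSeq, GRCh38.p14).
miR-31-5p: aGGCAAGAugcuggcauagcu
MIR31: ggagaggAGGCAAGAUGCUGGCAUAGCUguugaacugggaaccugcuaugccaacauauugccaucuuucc
The hairpin is 71 bases long and the 5p strand takes its positions 8 to 28. In the minimum-free-energy fold (RNAfold, -36.8 kcal/mol), 17 of the 21 bases of the 5p strand were paired. None of the other human mature sequences in the table, which holds 2370, shares the seed of miR-31-5p.

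Libraries held 144067 to 255296 miRNA counts, and each contributed at least 1082 counts to either miR-31 strand. Spike-in sequences gave a second scale: miRNA counts per spike-in count were 15.3 and 13.4 in R821E, 17.6 and 21.5 in R821A, 16.5 to 20.6 in the libraries of the remaining mutants, and 22.4 and 25.9 in WT. Levels are therefore given in CPM scaled by trimmed means (TMM), which set an entry against the bulk of the other miRNAs, and in counts per 1000 spike-in counts. The markers listed for epithelial cells, the miR-200 family with miR-192, miR-194 and miR-215, were present in the tables for 8 of 8 entries and summed to 1319 to 2639 CPM. They were lowest in R821E, at 1319 to 1339 CPM, against 2580 to 2591 CPM in WT. Leukocyte markers (4 of 4 entries) summed to 155 to 208 CPM in R821E and 279 to 385 CPM in WT, and fibroblast markers (5 of 5) to 275 to 337 CPM in R821E and 477 to 548 CPM in WT. Neuron markers (2 of 2) were highest in R821E, at 1209 to 1216 CPM, against 489 to 496 CPM in WT. Over all libraries leukocyte markers reached 480.1 CPM and fibroblast markers 643 CPM, while muscle markers (1 of 3) summed to 0 to 4.50 CPM and the hepatocyte marker (1 of 1) stood at 0 to 12.2 CPM. The markers are miRNAs and themselves depend on DICER, and their part in the results was not tested.

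miR-31-5p was the third entry by mean level in WT and stayed among the 5 highest entries of every library. Replicates 1 and 2 of R821E held 27451 and 27151 CPM, those of R821A 31073 and 26588 CPM, those of ΔPAZ helix 31419.9 and 35005 CPM, those of E5 31381 and 46707 CPM, those of A5 31145 and 34284 CPM, and those of WT 43209.5 and 26051 CPM. WT replicate 1 and E5 replicate 2 were the high libraries, and the libraries of each mutant overlapped those of WT. By group mean the order was E5, WT, ΔPAZ helix, A5, R821A and R821E. Of the neighbours in that order, A5 and R821A alone had libraries that did not overlap. The WT replicates differed by 0.73 on the log2 scale, a larger gap than the median of 0.34 among 250 entries with at least 100 CPM, 46 of which differed by more.

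Set against the spike-ins, miR-31-5p was lowest in R821E. Per 1000 spike-in counts, R821E held 300.2 and 292 counts, R821A 612 and 602, ΔPAZ helix 639 and 655, E5 562 and 814, A5 590.3 and 678, and WT 1114 and 717. R821E libraries lay below every other library, and the share of entries for which this held was not counted. The remaining groups overlapped their neighbours in the order WT, E5, ΔPAZ helix, A5 and R821A. R821E, R821A, ΔPAZ helix and A5 lay below both WT libraries, as did 73.3%, 42.5%, 54% and 56.7% of the tested entries in these comparisons. Libraries started from equal amounts of total RNA per the labels, so this scale is read per amount of RNA and not per cell.

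On the CPM scale miR-31-3p differed less between replicates than miR-31-5p, except in R821E, and separated the groups more cleanly. Replicates 1 and 2 of R821E held 10329 and 9347 CPM, those of R821A 10969.7 and 12442 CPM, those of ΔPAZ helix 6969.7 and 7337 CPM, those of E5 8078 and 8826 CPM, those of A5 7730.2 and 7977 CPM, and those of WT 6311 and 6494 CPM. All mutant libraries were above both WT libraries, and in the order R821A, R821E, E5, A5, ΔPAZ helix and WT no neighbouring groups overlapped. This order was taken from the same libraries, and the share of entries that separate every group in some order was not counted. The gap between the WT replicates was 0.041 on the log2 scale. Libraries that lay entirely above WT were seen for 34.8% of the 374 tested entries in R821E, 19% in R821A, 20.6% in ΔPAZ helix, 21.9% in E5 and 18.7% in A5.

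On the spike-in scale the order of the 3p strand changed. Per 1000 spike-in counts, R821E held 113 and 100.4 counts, R821A 216 and 282, ΔPAZ helix 142 and 137, E5 145 and 154, A5 147 and 158, and WT 163 and 179. R821A was the one group above WT, as were 5.35% of entries there, and the remaining mutants lay below both WT libraries. For E5 the same held for 58.3% of entries. The order was R821A, WT, A5, E5, ΔPAZ helix and R821E, with A5 and E5 overlapping. How many entries separate the groups to this extent was not counted.

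**Figure D1:**
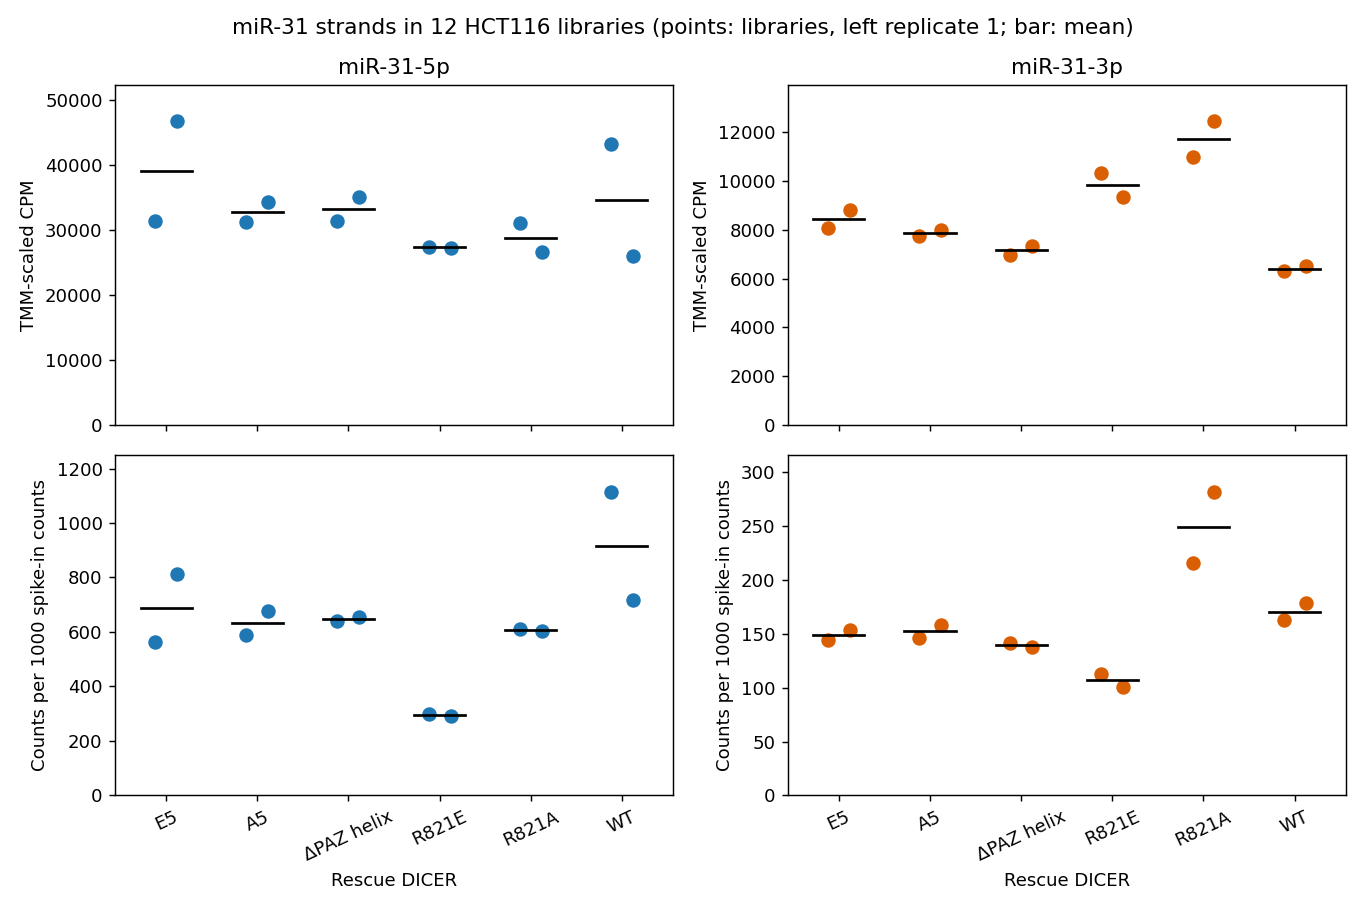
Level of miR-31-5p (left) and miR-31-3p (right) by rescue DICER, in TMM-scaled CPM (top) and in counts per 1000 spike-in counts (bottom). Points are the 2 libraries of a group, with replicate 1 on the left, and bars are means. miR-31-3p is highest in R821A on both scales, while R821E lies above WT in CPM and below WT against the spike-ins.

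In R821A the 3p strand was called higher on the TMM scale only. The 5p strand missed the threshold on both scales. The mean of miR-31-3p was 11706 ± 1041 CPM in R821A and 6402 ± 129 CPM in WT (SD, n = 2 each). The log2 fold change was 0.87 ± 0.12 (SE; edgeR quasi-likelihood test over 374 entries, Benjamini-Hochberg adjusted p = 0.0016), a 1.83-fold difference. It was the 1 entry called higher in this comparison (0.267% of those tested), against 11 called lower (2.94%), or 3.21% in all. On the spike-in scale 4.28% were called. Against the spike-ins the log2 fold change was 0.54 ± 0.15 (edgeR, adjusted p = 0.0666). Among all tested entries 98.7% had a smaller fold change on the TMM scale. With only the 4 libraries compared, the log2 fold change was 0.87 with an adjusted p of 0.150.

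miR-31-5p averaged 28830.3 ± 3171 CPM in R821A and 34630.4 ± 12133 CPM in WT (SD, n = 2 each). The log2 fold change was -0.26, with a 95% interval from -0.74 to 0.22 (edgeR, adjusted p = 0.765). On this TMM scale its direction rested on WT replicate 1, and without that library the log2 fold change was 0.15. Against the spike-ins the log2 fold change of miR-31-5p was -0.59, with a 95% interval from -1.04 to -0.15 (edgeR, adjusted p = 0.123). The median of all entries there was -0.35.

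In R821E, miR-31-3p rose by 0.62 ± 0.12 on the log2 scale relative to the other miRNAs (edgeR, adjusted p = 0.0014) but was lower than in WT relative to the spike-ins (-0.68 ± 0.15, adjusted p = 0.00177). Its mean was 9838 ± 695 CPM in R821E and 6402 ± 129 CPM in WT (SD, n = 2 each). As a plain share of miRNA counts it made up 0.738% and 0.751% in R821E and 0.726% and 0.688% in WT. With total counts as the scale the log2 fold change was 0.074 (edgeR, adjusted p = 0.664). R821E had a broad background: on the TMM scale 47.9% of the tested entries were called and 23.8% were called higher, and on the spike-in scale 60.4% were called lower. The median log2 fold change of all entries was -0.10, -1.38 and -0.65 on the TMM, spike-in and total-count scales, in that order. Relative to that median miR-31-3p stood 0.72 higher on the TMM scale and 0.70 higher on the spike-in scale. Among the 148 tested 3p entries, 18 were called higher and 56 lower in R821E on the TMM scale, and the median log2 fold change was -0.58. Against the spike-ins 0 were called higher and 103 lower, with a median of -1.88.

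miR-31-5p averaged 27301 ± 212 CPM in R821E and 34630.4 ± 12133 CPM in WT (SD, n = 2 each). It did not pass on the TMM scale, with a log2 fold change of -0.34 and a 95% interval from -0.82 to 0.14 (edgeR, adjusted p = 0.219). WT replicate 1 set the direction here as well. The log2 fold change was 0.11 without it (edgeR, adjusted p = 0.690) and -0.66 without WT replicate 2 (adjusted p = 0.0104). On the spike-in scale miR-31-5p fell by 1.63 ± 0.21 (edgeR, adjusted p = 1.54e-05). It held 296 ± 6.11 counts per 1000 spike-in counts in R821E, against 915 ± 281 in WT. The median of all entries on that scale was -1.38. miR-31-5p stood 0.25 below this median, and 42.5% of entries had a lower log2 fold change.

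Neither strand passed the test in E5, A5 or ΔPAZ helix on either scale. miR-31-3p had log2 fold changes of 0.40 (95% interval 0.14 to 0.67) in E5, 0.29 (0.029 to 0.56) with A5 and 0.16 (-0.11 to 0.43) with ΔPAZ helix on the TMM scale (edgeR, adjusted p = 0.0617, 0.266 and 0.597). These 3 values turned negative on the spike-in scale, at -0.19, -0.17 and -0.29 (edgeR, adjusted p = 0.365, 0.469 and 0.221). In E5 the DESeq2 size factors in place of TMM gave an edgeR adjusted p of 0.0429 for miR-31-3p. Of all tested entries, the TMM scale gave calls for 9.09% in E5 and for 0.267% in both A5 and ΔPAZ helix. The spike-in scale gave calls for 27.3%, 14.7% and 13.1%.

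The fold changes of miR-31-5p on the TMM scale were 0.17 (95% interval -0.31 to 0.65) in E5, -0.082 (-0.56 to 0.40) in A5 and -0.060 (-0.54 to 0.42) in ΔPAZ helix (edgeR, adjusted p = 0.702, 0.961 and 0.901). All 3 were negative against the spike-ins, at -0.41, -0.53 and -0.50 (edgeR, adjusted p = 0.146, 0.101 and 0.118). The medians of all tested entries on that scale were -0.56, -0.46 and -0.45, so miR-31-5p stood 0.15 above the median in E5 and 0.068 and 0.054 below it in A5 and ΔPAZ helix.

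Glutamate and alanine at R821 were compared directly. On the TMM scale miR-31-3p had a log2 fold change of -0.25 in R821E against R821A, with a 95% interval from -0.52 to 0.015 (edgeR, adjusted p = 0.116), and its libraries were lower in R821E, as for 38.2% of entries. Of all entries 41.4% were called in this comparison. miR-31-5p had a log2 fold change of -0.079 (-0.56 to 0.40, edgeR, adjusted p = 0.781). Against the spike-ins both strands were lower in R821E, the 3p strand by -1.22 ± 0.16 (edgeR, adjusted p = 2.75e-05) and the 5p strand by -1.04 ± 0.21 (adjusted p = 8.69e-04). On that scale 48.9% of tested entries were called lower, and the median entry stood at -1.02.

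Between E5 and A5 neither strand differed beyond its error. The log2 fold change of E5 against A5 was 0.26 (95% interval -0.23 to 0.74) for miR-31-5p and 0.11 (-0.16 to 0.37) for miR-31-3p (edgeR, adjusted p = 0.722 and 0.795). edgeR called 0 of 374 entries in this comparison, with 36 at an unadjusted p under 0.05, and DESeq2 also called 0 (0% by either). The miR-31-3p libraries of E5 lay above those of A5, as for 18.2% of entries.

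**Figure D2:**
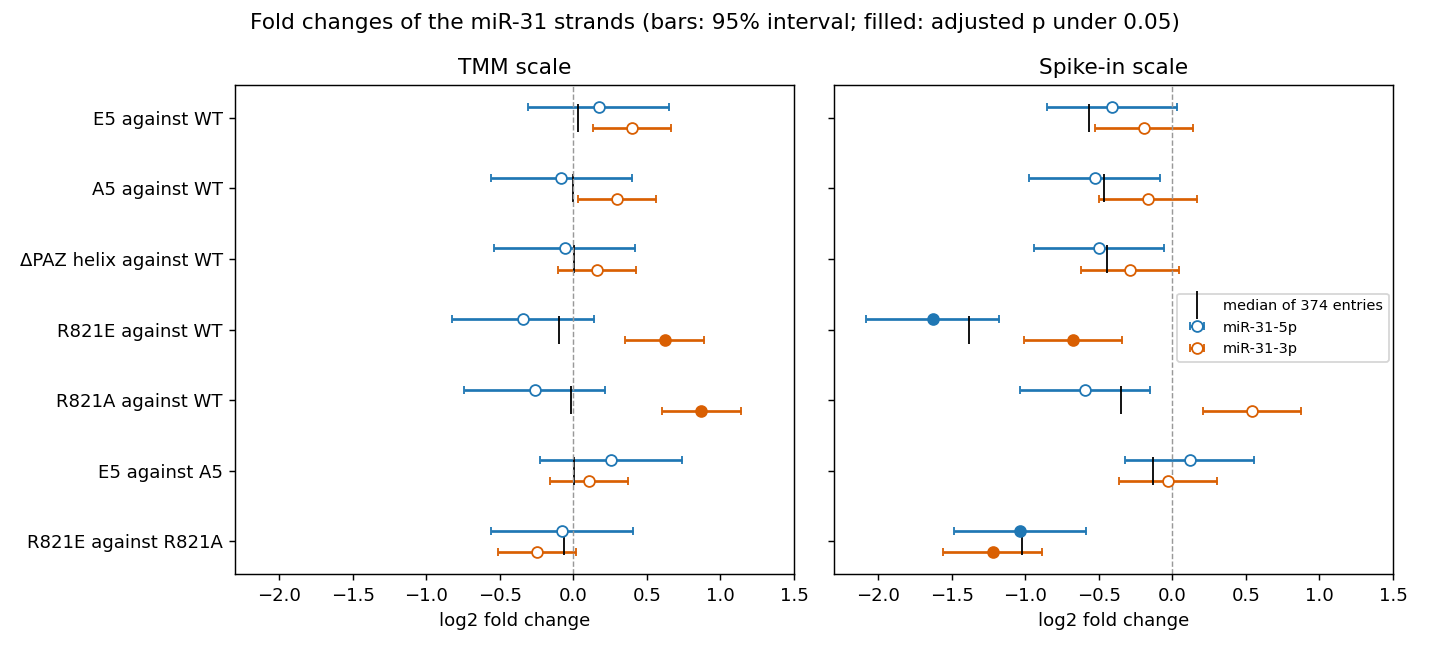
Log2 fold changes of miR-31-5p (blue) and miR-31-3p (orange) in 7 comparisons, on the TMM scale (left) and the spike-in scale (right). Bars are 95% intervals, filled points have an edgeR adjusted p under 0.05, and ticks mark the median of 374 entries. In R821E the 3p strand is above 0 at 0.62 on the TMM scale and below 0 at -0.68 on the spike-in scale, while in R821A it is above 0 on both.

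The share of the 3p strand within miR-31 does not depend on how libraries are scaled. R821E libraries had 27.3% and 25.6% of their miR-31 counts on the 3p strand, R821A libraries 26.1% and 31.9%, ΔPAZ helix libraries 18.2% and 17.3%, E5 libraries 20.5% and 15.9%, A5 libraries 19.9% and 18.9%, and WT libraries 12.7% and 19.95%. The 4 libraries with a changed R821 held the highest shares, none below 25.6%. The remaining 8 libraries were at 12.7% to 20.5%. How many of the 69 hairpins tested for their arm ratio split these 4 libraries from the other 8 was not counted. Against WT alone, both R821E libraries lay further toward 3p for 26.1% of those hairpins, and both R821A libraries for 18.8%. Counting error was small beside these gaps: the 95% Wilson interval was 24.3% to 26.9% in R821E replicate 2 and 19.6% to 21.4% in E5 replicate 1. The spread between replicates was not small: the WT libraries, at 12.7% and 19.95%, lay further apart than the 20.5% and 25.6% that bound the gap. Such intervals reflect counting alone and treat each read as an independent molecule, which amplified reads need not be.

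**Figure D3:**
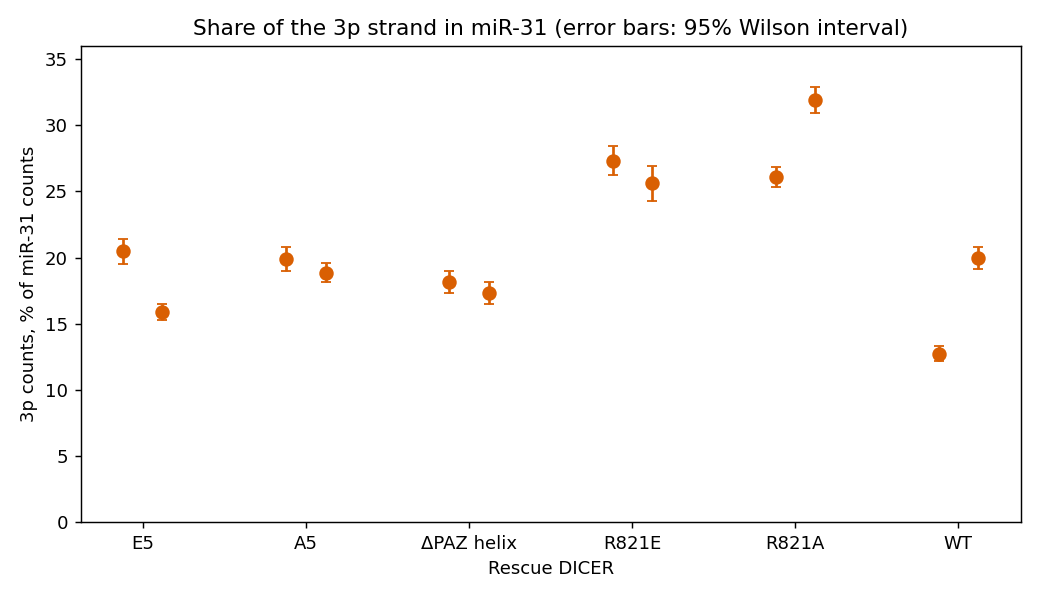
Counts of miR-31-3p as a percentage of all miR-31 counts, by rescue DICER, with 2 libraries per group (replicate 1 on the left) and 95% Wilson intervals for counting error. The R821E and R821A libraries lie at 25.6% to 31.9%, and the other libraries at 12.7% to 20.5%. The share of hairpins with such a split was not counted.

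In R821E the ratio of the strands shifted toward 3p. There were 2.66 and 2.90 counts of miR-31-5p per count of miR-31-3p in R821E, and 6.85 and 4.01 in WT. The log2 ratio was 1.47 ± 0.091 in R821E and 2.39 ± 0.55 in WT (SD, n = 2 each), a shift of -0.92 ± 0.25 (SE; limma over 69 hairpins, adjusted p = 0.0126). miR-31 was 1 of the 9 hairpins called toward 3p, 13% of those tested, beside 30 called toward 5p. The median shift of all hairpins was 0.40, toward 5p. Both R821E libraries lay below both WT libraries in ratio, as for 26.1% of hairpins. The call was lost without WT replicate 1, at -0.53 (limma, adjusted p = 0.0587), and without R821E replicate 1, at -0.85 (adjusted p = 0.0783).

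R821A libraries had 2.83 and 2.14 counts of miR-31-5p per count of miR-31-3p, against 6.85 and 4.01 in WT. The log2 ratio was 1.30 ± 0.29 in R821A and 2.39 ± 0.55 in WT (SD, n = 2 each), a shift of -1.09 with a 95% interval from -1.65 to -0.53. It did not pass the correction (limma, adjusted p = 0.0900), and 1 hairpin of the 69 moved further toward 3p. Libraries lay below WT for 18.8% of hairpins. In R821A limma called 0 of the 69 hairpins (0%), with 8 at an unadjusted p under 0.05. A fit restricted to the 15 hairpins whose arms both reached 100 counts called 4 of them. The shift of miR-31 passed there at the same size (limma, adjusted p = 0.0220). It was -0.71 without WT replicate 1 (limma, adjusted p = 0.161) and -1.48 without WT replicate 2 (adjusted p = 9.10e-04).

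Elsewhere the ratio stayed within its error. The shift against WT was -0.21 (95% interval -0.77 to 0.35) in E5, -0.33 (-0.89 to 0.23) with A5 and -0.18 (-0.73 to 0.38) with ΔPAZ helix (limma, adjusted p = 0.774, 0.608 and 0.841), and all 3 turned positive without WT replicate 1, at 0.18, 0.053 and 0.21. limma called 3 hairpins in E5 (4.35%) and 0 in A5 and ΔPAZ helix, where 6 and 9 had an unadjusted p under 0.05. R821E against R821A gave a shift of 0.18 (-0.38 to 0.73, limma, adjusted p = 0.643), while 34.8% of hairpins were called toward 5p in that comparison. E5 against A5 gave 0.12 (-0.43 to 0.68, limma, adjusted p = 0.927).

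**Figure D4:**
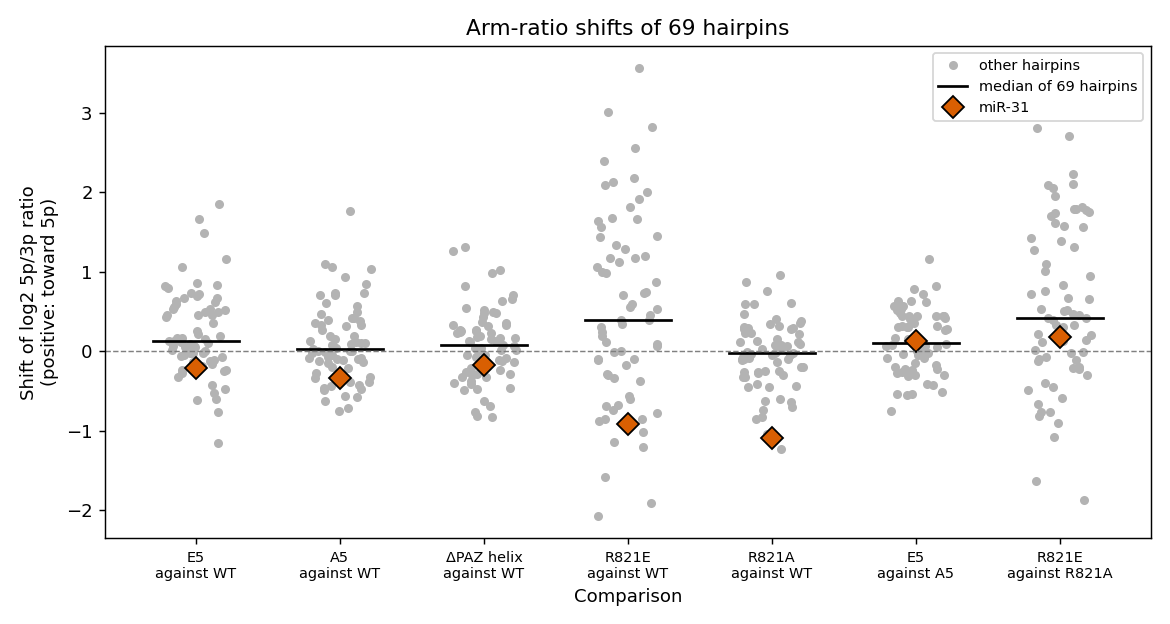
Shift of the log2 5p/3p ratio for 69 hairpins in 7 comparisons, with miR-31 as an orange diamond, the other hairpins in grey and the median as a bar. miR-31 lies at -0.92 in R821E against WT, where the median hairpin is at 0.40, and at -1.09 in R821A against WT, where the median is -0.025.

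The output of the hairpin as a whole, its 5p and 3p counts added, was not called on the TMM scale in any of the 7 comparisons. There 47.3% of summed entries were called in R821E, 3.53% in R821A, 1.06% in ΔPAZ helix, 11.7% in E5, 0% in A5, 39.6% in R821E against R821A and 0% in E5 against A5. In A5 and in E5 against A5, where edgeR and DESeq2 both called 0, 40 and 28 summed entries had an unadjusted edgeR p under 0.05. The sum stood at 36303 and 37348 CPM in R821E, 41776 and 39369.7 CPM in R821A, and 49137 and 32442 CPM in WT. The log2 fold change was -0.15 (95% interval -0.56 to 0.27) in R821E and -0.0077 (-0.42 to 0.41) in R821A (edgeR over 283 summed entries, adjusted p = 0.561 and 0.994). On the spike-in scale the sum was 413 and 392 counts per 1000 spike-in counts in R821E, 828 and 884 in R821A, and 1277 and 895 in WT. There it fell by 1.43 ± 0.19 on the log2 scale in R821E (edgeR, adjusted p = 1.24e-05), beside 62.9% of summed entries called lower. In R821A it had a log2 fold change of -0.34 (-0.74 to 0.049, edgeR, adjusted p = 0.263), beside 4.24% called. R821E against R821A gave -1.09 ± 0.18 on that scale (edgeR, adjusted p = 2.06e-04), with 49.8% of summed entries called lower. The medians of all summed entries there were -1.41 in R821E, -0.34 in R821A and -0.98 in R821E against R821A.

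Both strands were abundant relative to other hairpins. In WT the entries around miR-31-5p were miR-222-3p above it at 66843 ± 6579 CPM and miR-221-3p below it at 25279 ± 2275 CPM (SD, n = 2), both repressors of the cell-cycle inhibitor CDKN1B, with miR-21-5p first at 367639 ± 56384 CPM. miR-31-3p ranked 20 in WT, between miR-26a-5p at 6449 ± 161 CPM and miR-30e-5p at 6093 ± 108 CPM. By group mean its rank was 17 in R821E, 9 in R821A, 20 in ΔPAZ helix, 15 in E5 and 18 in A5. Among 3p strands alone it took place 3 in both R821E libraries, places 5 and 4 in R821A, and places 10 and 9 in WT. When the 396 hairpins with both arms listed were ordered by their less abundant arm, miR-31 took place 2 on average and places 1 to 3 in single libraries.

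The 3 hairpins nearest to miR-31 in WT log2 ratio, of those whose arms both reached 100 counts, were miR-93, miR-181a and miR-15b. They differed from it by 0.12, 0.53 and 0.97. In R821E the ratio of miR-181a, which has at least 1 arm listed for several loci, shifted by -0.85 toward 3p (limma, adjusted p = 0.0108). That of miR-15b shifted by 0.98 toward 5p (limma, adjusted p = 0.00631). The shift of miR-93 was -0.67 (limma, adjusted p = 0.140). In R821A the shifts of miR-93, miR-181a and miR-15b were -0.45, -0.26 and -0.031, against -1.09 for miR-31, and none of these 4 passed (limma, lowest adjusted p = 0.0900, for miR-31).

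The strands did not follow each other across libraries. Pearson's r of their log2 CPM over the 12 libraries was -0.36, given as a description, since libraries of a group share their DICER and all share the scaling. Of 249 entries with at least 100 CPM, miR-22-3p (r = 0.84), miR-15b-3p (0.82), miR-19b-3p (0.80) and miR-191-5p (0.77) were most like miR-31-5p. miR-22-3p showed the same high libraries, with 1981 and 6969 CPM in E5 and 6109.9 and 2224 CPM in WT. Replicate 2 of E5 and replicate 1 of WT thus stood apart in both entries, and the differences between replicates 1 and 2 had r = -0.65 between E5 and WT over the 250 entries with at least 100 CPM. The entries most like miR-31-3p had lower coefficients: miR-3687 (0.62), miR-339-5p (0.62), miR-10a-3p (0.61) and miR-30a-3p (0.61).

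Other miRNAs commonly reported as raised in colorectal tumours were set beside miR-31. Of 20 listed, 19 were tested. In R821E against WT 5 of the 19 were higher and 7 lower on the TMM scale (23.8% and 24.1% of all tested entries), with a median log2 fold change of -0.13 beside -0.10 for all entries. On the log2 scale miR-25-3p, encoded beside miR-93, fell by 2.70, miR-221-3p by 1.60 and miR-92a-3p by 1.58, while miR-18a-5p, encoded in one transcript with miR-92a, rose by 1.08 (edgeR, adjusted p = 6.90e-08, 4.43e-06, 1.41e-06 and 1.44e-04). On the spike-in scale 15 of the 19 were lower and 0 higher, beside 60.4% of all entries called lower and a median of -1.41 beside -1.38 for all entries, with miR-18a-5p at -0.21 (edgeR, adjusted p = 0.349). On the TMM scale miR-25-3p alone of the 19 was called in R821A, falling by 0.76 (edgeR, adjusted p = 0.00615). The list's median of -0.028 was near the -0.018 of all entries. In E5 4 were lower and 0 higher on the TMM scale, beside 6.68% of all entries called lower. These were miR-25-3p (-1.02), miR-221-3p (-0.92), miR-222-3p (-0.50) and miR-92a-3p (-0.49) (edgeR, adjusted p at most 0.0351). In A5 miR-221-3p fell by 0.78 and in ΔPAZ helix miR-25-3p fell by 0.92 (edgeR, adjusted p = 0.0334 and 0.00878). Each was the 1 entry called there on the TMM scale. On the spike-in scale 2 of the 19 were lower in R821A, 10 in E5, 10 in A5 and 7 in ΔPAZ helix, with 0 higher. Of all entries 4.28%, 27.3%, 14.7% and 13.1% were called on that scale, in the same order. In R821E against R821A 6 of the 19 were higher and 7 lower on the TMM scale, beside 21.9% and 19.5% of all entries, and in E5 against A5 none of the 19 was called.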

How the data were processed

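Small RNA of 12 HCT116 libraries was measured by AQ-seq and sequenced on a NovaSeq instrument, per the labels' protocols. The authors deposited raw counts, whole numbers per miRNA entry or spike-in sequence and library, with no normalisation. Per the submitters' processing notes, tools included bedtools, BWA and cutadapt, and genome builds mm10 and hg38 were listed. Tool versions, what each build was used for and how reads matching several entries were counted were not stated there. No other entry had the same counts as a miR-31 strand in all libraries.

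From these counts, 374 of 1346 miRNA entries passed edgeR's filterByExpr by group, both miR-31 strands among them. The 30 spike-in entries stayed out of library sizes and tests. edgeR 4.0.16 (R 4.3.3; quasi-likelihood, robust, TMM) was fitted over all 12 libraries, and p-values were adjusted by Benjamini-Hochberg over all entries, with a threshold of 0.05. CPM are TMM-scaled. The spike-in scale used summed spike-in counts as library size. The arm ratio, log2 of (5p + 0.5)/(3p + 0.5), was tested with limma 3.58.1 (trend, robust) over the 69 hairpins whose arms both averaged 20 counts or more, and summed arms with edgeR over 283 summed entries. Alternatives were DESeq2 1.42.0, other scalings, no filter, other sets of libraries or hairpins, the replicate number as a block, another pseudocount and each library left out. Replicates differed by more than sampling noise (chi-square per degree of freedom 3.83 to 25.6). The fold of MIR31 was computed with RNAfold 2.7.2.

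The members, lists, tests and alternatives were chosen with earlier results of these data known. Entries were named by rule: the miR-31 strands, their neighbours in WT rank, the 4 entries of at least 100 CPM most correlated with each strand, the 3 hairpins of at least 100 counts per arm nearest in WT arm ratio, miR-21-5p, and up to 4 called members of the colorectal list per comparison, largest change first.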

Additional observations from a re-analysis of the deposited data

How the results depend on the processing

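The 2 libraries per group, the gap between the WT replicates and the choice of scale limit these results. Both strands held at least 1082 counts in every library, and an effect of depth was not tested. Of 168 values recomputed under settings other than leaving out a library, 145 kept their direction and their side of the threshold; where a value did not, the cause was not tested. With the spike-in scale, miR-31-5p was at -0.41 in E5, -1.63 in R821E and -1.04 in R821E against R821A. miR-31-3p was there at -0.68 in R821E, 0.54 in R821A, -0.29 in ΔPAZ helix, -0.19 in E5, -0.17 in A5, -0.028 in E5 against A5 and -1.22 in R821E against R821A. The summed arms were at -0.38 in E5, -1.43 in R821E and -1.09 in R821E against R821A. With total counts, R821E gave -0.90 for miR-31-5p, 0.074 for miR-31-3p and -0.70 for the sum, and R821E against R821A gave -0.77 for miR-31-3p and -0.65 for the sum. Without a filter miR-31-5p was at -0.52 in R821E (edgeR, adjusted p = 0.0131). The DESeq2 size factors gave 0.45 for miR-31-3p in E5, DESeq2 gave 0.014 for the sum in R821A, the 4 libraries alone gave 0.87 for miR-31-3p in R821A, and hairpins of at least 100 counts gave -1.09 for the arm shift in R821A.

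The replicate number as a block changed no call on miR-31: miR-31-3p was at 0.62 in R821E and 0.87 in R821A with it, and the arm shift of R821E at -0.92 (limma, adjusted p = 0.0291). It moved the called entries in E5 to 22 (34 without it) and in A5 to 0 (1 without it). Pairing by number was not borne out, since the differences between replicates 1 and 2 had r from -0.65 to 0.56 between the groups compared. Leaving out the 4 hairpins with an arm listed for several loci, a choice made after the data were seen, left the calls on miR-31 as they were (limma, adjusted p = 0.0129 in R821E and 0.0845 in R821A).

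With 1 library left out at a time, the lone library of a group was assumed to vary like the others. Levels and sums were recomputed this way on the TMM scale only, and the spike-in results were not. miR-31-5p ran from -0.66 to 0.11 in R821E, -0.58 to 0.15 in R821A, -0.36 to 0.36 in ΔPAZ helix, -0.14 to 0.59 in E5, -0.39 to 0.33 in A5, -0.054 to 0.52 in E5 against A5 and -0.15 to 0.048 in R821E against R821A. miR-31-3p kept its direction throughout, from 0.58 to 0.77 in R821E (edgeR, adjusted p at most 0.0201) and from 0.82 to 0.94 in R821A (adjusted p at most 0.0273). The arm shift ran from -1.30 to -0.53 in R821E, -1.48 to -0.71 in R821A, -0.56 to 0.21 in ΔPAZ helix, -0.59 to 0.18 in E5, -0.72 to 0.053 in A5, -0.099 to 0.35 in E5 against A5 and -0.028 to 0.38 in R821E against R821A. The sum ran from -0.42 to 0.17 in R821E, -0.22 to 0.36 in R821A, -0.28 to 0.30 in ΔPAZ helix, -0.063 to 0.52 in E5, -0.28 to 0.30 in A5, -0.040 to 0.48 in E5 against A5 and -0.23 to -0.15 in R821E against R821A. Over all alternatives, called entries numbered 114 to 227 in R821E (179 as reported), 0 to 17 in R821A (12), 0 to 49 in ΔPAZ helix (1), 0 to 102 in E5 (34), 0 to 55 in A5 (1), 73 to 184 in R821E against R821A (155) and 0 to 1 in E5 against A5 (0). Called sums numbered 101 to 179 in R821E (134 as reported), 0 to 16 in R821A (10), 0 to 57 in ΔPAZ helix (3), 7 to 84 in E5 (33), 0 to 46 in A5 (0), 58 to 143 in R821E against R821A (112) and 0 to 1 in E5 against A5 (0). The low ends of 7 in E5, 0 in R821A and 58 in R821E against R821A came without E5 replicate 2, R821A replicate 1 and R821E replicate 1. With 1 library left out, called hairpins of the 69 numbered 25 to 38 in R821E (39 as reported), 0 to 1 in R821A (0), 0 to 5 in E5 (3) and 14 to 28 in R821E against R821A (27). The fit of hairpins with at least 100 counts tested 15 and called 11, 4, 3 and 9 of them in these comparisons.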
